A study of Mus musculus with 6 samples.

Results

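NF-κB is a family of dimeric transcription factors, and the 10 genes described here encode its 5 subunits and 5 of the IκB proteins that bind them. They were taken as the rows of the count and FPKM tables that carry the symbols Nfkb1, Nfkb2, Rela, Relb, Rel, Nfkbia, Nfkbib, Nfkbie, Nfkbiz and Bcl3, which is 10 of the 41079 genes listed. All 10 had enough counts to be tested. RNA was sequenced from primary microglia in 6 libraries, 3 labelled control and 3 labelled stimulated. The cells came from brains of C57Bl/6N mice aged 1 to 3 days and were expanded in mixed glial flasks with L-929 conditioned medium, which is rich in M-CSF, before they were shaken off, and brains were pooled in a flask. Control cells were kept in serum-free DMEM/F12. Stimulated cells received 100 ng/mL each of human TGFbeta, IL34 and CX3CL1. The methods also name cholesterol, insulin-transferrin-selenium and a collagen IV coating, which the labels do not. All cells met serum while they were grown and attached, and the time between stimulation and RNA isolation is not given in the sources used here. No library received 1 supplement alone, so the supplements cannot be told apart.

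In resting cells, the classical inhibitors IκBα, IκBβ and IκBε (Nfkbia, Nfkbib and Nfkbie) hold NF-κB dimers in the cytoplasm. The IKK kinase complex, activated by Toll-like, interleukin-1 and TNF receptors, phosphorylates these inhibitors and marks them for destruction, and dimers such as RelA:p50 enter the nucleus. In the noncanonical arm, the kinase NIK (Map3k14) triggers the processing of the Nfkb2 product p100 to p52, the partner of RelB. Several family members are themselves NF-κB target genes, Nfkbia being the textbook negative feedback gene. IκBζ (Nfkbiz) and Bcl-3 (Bcl3) act in the nucleus, where they modify transcription with p50 and p52. In microglia the pathway is best known for the induction of cytokines and chemokines after contact with microbial products or damage.

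The libraries held between 20628148 and 27261839 counts. Microglia and macrophage markers were abundant, with the summed level of 9 genes between 8552 and 9286 CPM (the count relative to the library total, after TMM scaling) in control and between 13169 and 17228 CPM in stimulated libraries. Marker sums of other cell types were lower, and some moved with the condition. Astrocyte markers (5 genes) summed to between 27.1 and 30.02 CPM in control and between 18.3 and 20.8 CPM in stimulated libraries. Of these, Aldh1l1 fell from a mean of 16.5 to 4.64 CPM (adjusted p = 3.8e-06, edgeR), while the other 4 did not pass the test and Gja1 had 5.64 and 7.94 CPM. For oligodendrocyte markers (5 genes, mostly Mbp) the ranges were 124.8 to 140.3 and 155.6 to 189.6 CPM. Mbp was called higher (adjusted p = 0.023, edgeR), and the other 4 were not called. Fibroblast markers (5 genes) lay between 21.3 and 27.8 CPM and between 22.01 and 78.8 CPM, and endothelial markers (4) stayed at or below 2.90 CPM. Neuron markers (5) were low but apart, at 2.05 to 3.41 CPM in control and 3.93 to 4.26 CPM in stimulated libraries. Among these, Nefl was called higher, with means of 0.23 and 1.14 CPM (adjusted p = 0.0019, edgeR). None of these markers was at 0 in all libraries, and their part in the results was not tested. Stimulated library 1 differed more from the other stimulated libraries than those did from each other, with a chi-square per degree of freedom of 78.3 and 46.2 against 14.5. Fewer transcripts per cell and fewer cells of a type cannot be told apart in RNA from whole cultures.

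Among the 10 genes, 8 were lower in stimulated microglia at an adjusted p-value under 0.05 and 0 were higher (the quasi-likelihood test of edgeR, with p-values adjusted by the Benjamini-Hochberg method over 14618 genes). Over all genes tested, 15.2% were called lower and 14.7% higher, 29.8% in all. The count of higher genes was also 0 at an unadjusted p-value under 0.05, with DESeq2 and with limma on the FPKM values. In 8 of the 10, the same genes as those called, all stimulated libraries lay below all control libraries. This was the case for 22.5% of the genes tested, and 21.4% were apart in the other direction. Both counts rest on the same libraries, so the second is not separate from the first. The median log2 fold change of the 10 was -0.77, against 0.01 over all genes tested, and all 10 values were below 0. The changes were unequal, from -0.05 for Rel to -2.27 for Nfkbie.

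The 250 bases upstream of the annotated start of each gene were searched on both strands for the 10-base κB consensus, which NF-κB dimers recognise. The letters used were GGGRNNYYCC, where R is A or G, Y is C or T and N is any base. It was present in 3 of the 10 genes, Relb, Nfkbia and Nfkbie, and in 7.68% of the 20996 protein-coding genes searched. These 3 promoters, of a subunit and 2 classical inhibitors, are shown because they hold the match. Each is given 5′ to 3′ on the strand of the gene (GRCm39, start of the canonical transcript in GENCODE M39), with the match in capitals.
Relb, chr7:19363424-19363673, minus strand: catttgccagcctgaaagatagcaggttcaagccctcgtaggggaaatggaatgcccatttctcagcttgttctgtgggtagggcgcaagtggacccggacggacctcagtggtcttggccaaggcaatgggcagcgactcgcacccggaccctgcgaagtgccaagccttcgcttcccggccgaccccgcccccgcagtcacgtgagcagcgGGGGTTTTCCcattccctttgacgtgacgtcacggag
Nfkbia, chr12:55539433-55539682, minus strand: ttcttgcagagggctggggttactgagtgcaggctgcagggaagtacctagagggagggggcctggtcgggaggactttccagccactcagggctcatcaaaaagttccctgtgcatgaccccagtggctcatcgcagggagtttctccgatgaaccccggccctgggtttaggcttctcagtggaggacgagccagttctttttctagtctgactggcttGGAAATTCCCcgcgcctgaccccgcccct
Nfkbie, chr17:45866356-45866605, plus strand: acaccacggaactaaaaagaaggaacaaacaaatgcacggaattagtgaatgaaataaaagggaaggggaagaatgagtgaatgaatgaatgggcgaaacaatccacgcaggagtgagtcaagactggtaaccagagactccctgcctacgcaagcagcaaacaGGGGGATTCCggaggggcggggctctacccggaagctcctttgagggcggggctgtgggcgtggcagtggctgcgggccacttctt
The match began 37 bases upstream of the start in Relb, 29 in Nfkbia and 86 in Nfkbie. In Nfkbia it reads as the consensus on the opposite strand. Binding was not measured, and the promoters of the other 7 genes hold no match to these letters in this window. Of those 7, Nfkb1, Nfkb2, Rela, Nfkbib and Bcl3 were also called lower in stimulated cells. A lower level thus did not set apart the 3 genes with a match.

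**Figure D1:**
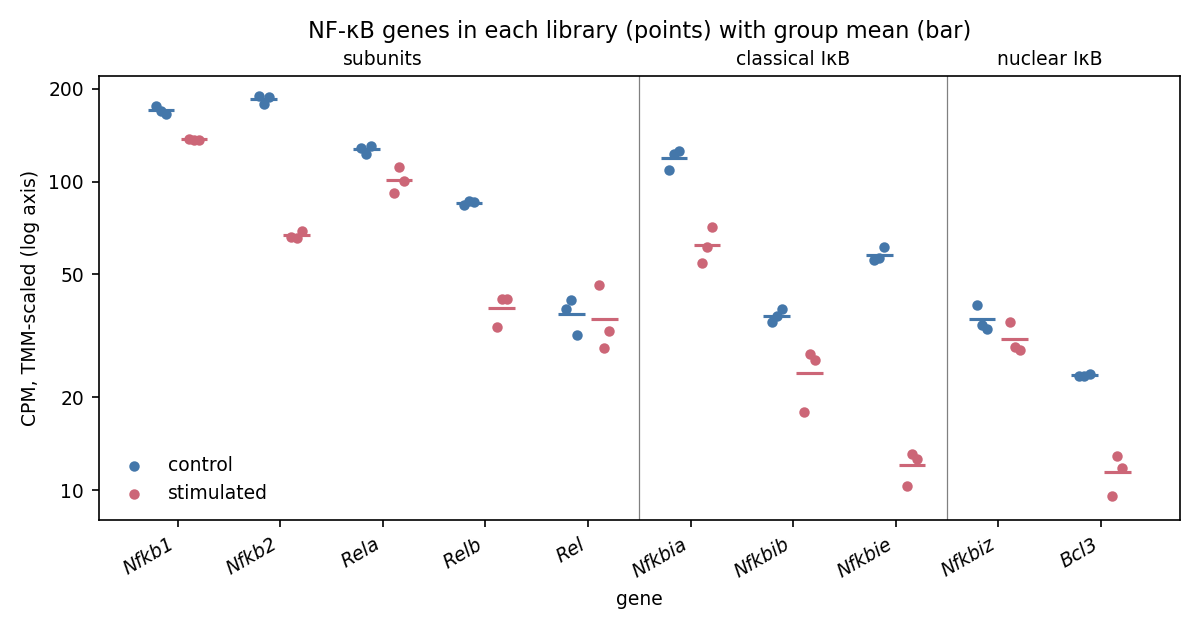
Level of each gene in each library, in CPM after TMM scaling on a log axis. Points are libraries (3 control in blue, 3 stimulated in red) and bars are group means. The 2 colours overlap for Rel and Nfkbiz and are apart for the other 8 genes, most widely for Nfkbie, with 55.9 to 61.5 CPM in control and 10.3 to 13.1 CPM in stimulated libraries.

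Rela and Nfkb1 encode RelA and p105, the precursor of p50, which form the most common dimer of the canonical pathway. Rela (chromosome 19, 5687493 to 5698161 of GRCm39) had 129, 123 and 130.3 CPM in control libraries 1 to 3 and 91.5, 111 and 100.1 CPM in stimulated libraries 1 to 3. The groups did not overlap, but the highest stimulated library was close to the lowest control library. The mean of 127 ± 3.69 CPM fell to 101 ± 9.78 CPM (SD, n = 3 each; log2 fold change -0.34, standard error (SE) 0.09, adjusted p = 0.020, edgeR). Nfkb1 (chromosome 3, 135290264 to 135397742) had 176, 169.5 and 165 CPM in control and 138, 137 and 137 CPM in stimulated libraries, so that the stimulated libraries were nearly equal. Its log2 fold change was -0.31 (SE 0.08, adjusted p = 0.011, edgeR). Both calls were the least stable of the 8. The adjusted p-value of Nfkb1 was 0.055 without control replicate 1 and 0.054 without stimulated replicate 3, and that of Rela was between 0.054 and 0.074 without control replicate 1, 2 or 3 or stimulated replicate 3 (edgeR).

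The noncanonical subunits fell further. Nfkb2 (chromosome 19, 46292759 to 46303812), which encodes p100 and its product p52, had 189.6, 179 and 187 CPM in control and 66.3, 65.6 and 69.03 CPM in stimulated libraries. Every stimulated library was at well under the level of any control library, and the spread within each group was small. The decrease was 2.76-fold (log2 fold change -1.47, SE 0.08, adjusted p = 7.9e-07, edgeR). Exons of Nfkb2 share 1933 bases with Psd and 1081 bases with 4833438C02Rik on the opposite strand, and since the strand setting of the counting is not stated, reads of these genes cannot be told apart. Over all 6 libraries they had mean counts of 335 and 323, at 11.04% and 10.7% of the mean count of Nfkb2. In stimulated libraries alone Nfkb2 had between 1400 and 1541 counts, so their percentage there may be larger. Relb (chromosome 7, 19339017 to 19363425) had 83.9, 86.2 and 85.8 CPM in control and 33.9, 41.7 and 41.7 CPM in stimulated libraries, with stimulated library 1 the lowest. It was 2.18-fold lower (log2 fold change -1.13, SE 0.10, adjusted p = 1.9e-05, edgeR).

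Rel, which encodes c-Rel, a subunit most abundant in lymphoid and myeloid cells, did not pass the test. It lies on chromosome 11, from 23686847 to 23721264. Its libraries held 38.6, 41.4 and 31.8 CPM in control and 46.2, 28.95 and 32.8 CPM in stimulated cultures. The highest and the lowest of the 6 values were both stimulated libraries, number 1 being the highest. The log2 fold change was -0.05 with a 95% confidence interval from -0.43 to 0.33 and an adjusted p of 0.86 (edgeR), an interval that reaches from 0.741 to 1.26 times the control level and includes the values of Nfkb1 and Rela. Leaving out control replicate 2, stimulated replicate 2 or stimulated replicate 3 turned its sign, to values between 0.01 and 0.08, and without stimulated replicate 1 it was -0.27.

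**Figure D2:**
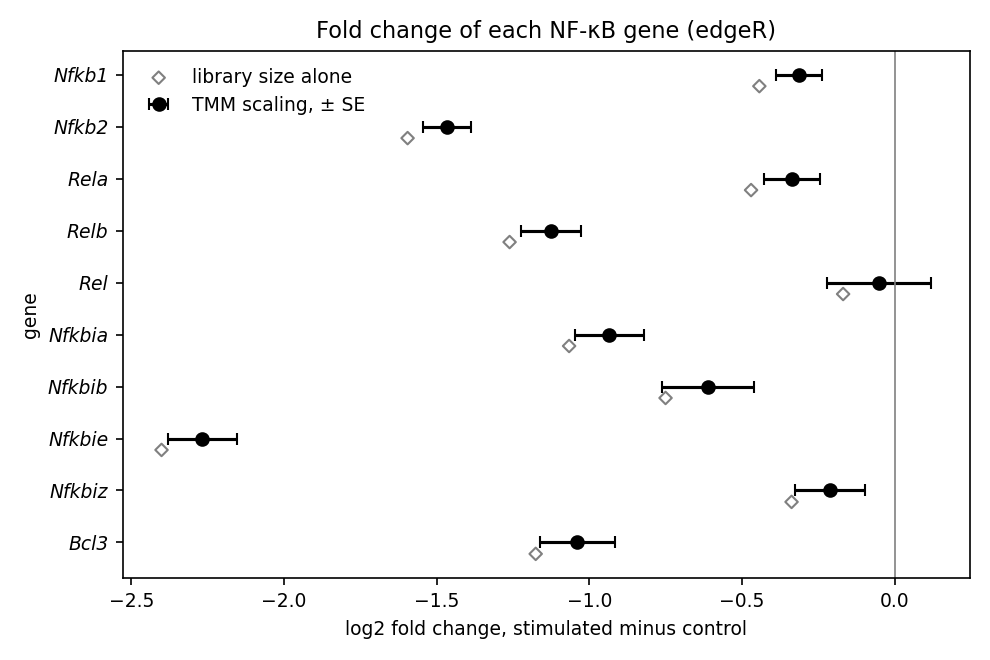
Log2 fold change of each gene, stimulated minus control, from edgeR. Filled circles with bars are values ± standard error under TMM scaling, and open diamonds are values when counts were scaled by library size alone. Library size alone placed every gene lower, Nfkb2 for example at -1.6 instead of -1.47, and left the order of the largest decreases, Nfkbie, Nfkb2 and Relb, as it was.

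All 3 classical inhibitors were called lower, beside 15.2% of all genes tested. Nfkbie (chromosome 17, 45866585 to 45874661) encodes IκBε, an inhibitor that is induced with delay by NF-κB in many cells. It had 55.9, 56.6 and 61.5 CPM in control and 10.3, 13.1 and 12.7 CPM in stimulated libraries. The groups were far apart, and the decrease was 4.81-fold (log2 fold change -2.27, SE 0.11, adjusted p = 5.0e-07, edgeR). Of all genes tested, 1.02% had a lower log2 fold change. By the root mean square difference of centred log2 CPM over the 6 libraries, the profiles nearest to that of Nfkbie among 10483 genes were Lrrc25 (0.0706), Ccl6 (0.112) and Pcp4l1 (0.126).

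Nfkbia, on chromosome 12 from 55535332 to 55539432, had 109, 123 and 126 CPM in control and 54.3, 61.2 and 71.5 CPM in stimulated libraries. No stimulated library reached a control library. The gene was 1.91-fold lower (log2 fold change -0.93, SE 0.11, adjusted p = 0.00017, edgeR). Nfkbib, on chromosome 7 from 28457486 to 28466937, had 34.98, 36.6 and 38.5 CPM in control and 17.99, 27.6 and 26.5 CPM in stimulated libraries, where library 1 was clearly below the others. Its log2 fold change was -0.61 (SE 0.15, adjusted p = 0.012, edgeR) and -0.44 without stimulated replicate 1. Exons of Nfkbib share 42 bases with Sirt2 on the opposite strand, and Sirt2 had 5.08 times its mean count.

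Of the genes of nuclear IκB proteins, 1 of 2 passed the test, beside 29.8% of all genes tested. Bcl3 (chromosome 7, 19541553 to 19557570) had 23.4, 23.5 and 23.8 CPM in control and 9.61, 12.9 and 11.9 CPM in stimulated libraries. The control libraries were almost the same, and all stimulated libraries were lower. The decrease was 2.05-fold (log2 fold change -1.04, SE 0.12, adjusted p = 0.00013, edgeR). Nfkbiz (chromosome 16, 55631738 to 55659262), which encodes IκBζ, an inducible cofactor for late inflammatory genes such as Il6 and Lcn2, had 39.8, 34.3 and 33.3 CPM in control and 35.1, 29.1 and 28.5 CPM in stimulated libraries. The groups overlapped because stimulated library 1 lay above 2 of the control libraries. Its log2 fold change was -0.21 with a 95% confidence interval from -0.47 to 0.04 (adjusted p = 0.20, edgeR), and without stimulated replicate 1 it was -0.31 with an adjusted p of 0.025. Nfkbid, which encodes the nuclear protein IκBNS and is not one of the 10, had 33.8, 25.2 and 29.7 CPM in control and 14.8, 13.96 and 13.01 CPM in stimulated libraries (log2 fold change -1.08, SE 0.13, adjusted p = 0.00012, edgeR).

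Levels of different genes were compared as FPKM, which the authors scaled by gene length. In control libraries Nfkbia had the highest mean at 76.6 FPKM. Nfkb1 followed at 40.7 and Rela at 38.4 FPKM, with overlapping libraries. Nfkbie was next at 24.1 FPKM, above the overlapping pair of Nfkbib at 17.5 and Nfkb2 at 16.6 FPKM. Bcl3 had 12.97, Relb 9.96, Nfkbiz 9.36 and Rel 5.09 FPKM, and of these Relb and Nfkbiz overlapped. In stimulated libraries Nfkbia at 36.4, Nfkb1 at 29.7 and Rela at 27.6 FPKM still led, with Nfkb1 and Rela overlapping. Nfkbib at 10.4 and Nfkbiz at 7.34 FPKM came next and overlapped. Bcl3 at 5.71 and Nfkb2 at 5.47 FPKM overlapped, as did Nfkbie at 4.54, Rel at 4.48 and Relb at 4.13 FPKM. The stimulated libraries of Rel, from 3.41 to 5.90 FPKM, overlapped those of Bcl3 and Nfkb2 as well. Both orders hold only for the gene lengths behind the deposited FPKM. Relative to Rela, these lengths were between 0.321 (Nfkb1) and 1.66 (Relb) times the union of exons in GENCODE M39, so that the places of Nfkb1, Nfkb2, Relb, Bcl3 and Nfkbie in particular depend on them.

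The summed FPKM of the 5 subunits was 110.8 ± 4.98 in control and 71.4 ± 1.21 in stimulated libraries (SD, n = 3 each), and that of the classical inhibitors was 118 ± 5.6 and 51.3 ± 7.05. Within the subunits, the share of Nfkb2 was 15.03% ± 0.33 in control and 7.66% ± 0.33 in stimulated libraries, and that of Relb was 8.99% ± 0.28 and 5.79% ± 0.56 (SD, n = 3 each). The share of Nfkb1 was 36.7% ± 0.71 and 41.7% ± 1.24, that of Rela 34.7% ± 0.94 and 38.6% ± 2.71, and that of Rel 4.58% ± 0.61 and 6.26% ± 1.73. These shares depend on the gene lengths. Relative to Rela, the deposited FPKM values imply a length of 1.26 for Nfkb1 and 3.35 for Nfkb2, where the union of exons in GENCODE M39 gives 3.92 and 2.41. With the latter, Nfkb2 took a larger share than Nfkb1 in control libraries (24.1% against 13.6%), and the share of Nfkb2 was again lower in stimulated libraries (13.6%).

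Ratios within a library do not depend on the scaling, and their change between conditions does not depend on gene length. The FPKM ratio of Nfkb2 to Nfkb1 was 0.406, 0.396 and 0.427 in control and 0.181, 0.181 and 0.190 in stimulated libraries, so that Nfkb2 fell 2.23-fold relative to Nfkb1. The ratio of Relb to Rela was 0.253, 0.271 and 0.255 against 0.143, 0.145 and 0.161, a 1.73-fold decrease. For Nfkbia to Rela, inhibitor to subunit, the values were 1.805, 2.13 and 2.06 against 1.27, 1.18 and 1.52, a 1.51-fold decrease. Nfkbie to Nfkbia went from 0.333, 0.298 and 0.317 to 0.123, 0.139 and 0.115. In none of the 4 ratios did the groups overlap, and each gave p = 0.1 in a two-sided exact permutation test, which is the smallest p that 3 libraries against 3 allow (also 0.1 after adjustment over the 4).

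**Figure D3:**
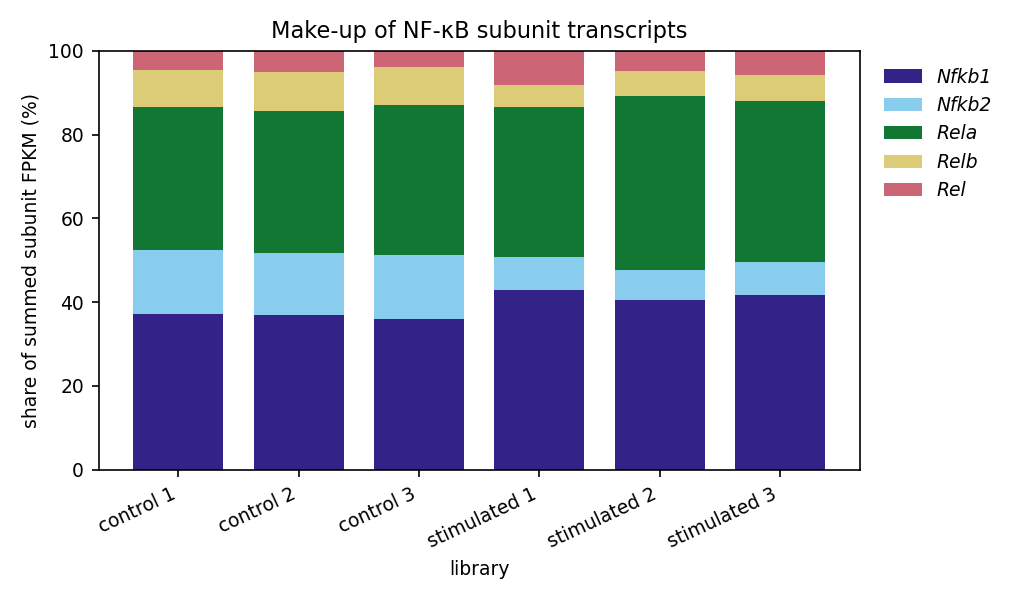
Share of each subunit in the summed FPKM of the 5 subunits, in percent, for each library (stacked bars from 0 to 100). The share of Nfkb2 was between 14.7% and 15.3% in control and between 7.3% and 7.92% in stimulated libraries, and that of Relb was also smaller in each stimulated library. The heights depend on the gene lengths behind the FPKM values.

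Upstream of the family, 1 of the 3 genes of the IKK complex passed the test. Ikbkg, which encodes the regulatory subunit NEMO, was lower (log2 fold change -0.31, SE 0.08, adjusted p = 0.016, edgeR) but lost its call without control replicate 1 or 3 or stimulated replicate 3. The kinase genes Ikbkb and Chuk had log2 fold changes of -0.20 (adjusted p = 0.10, edgeR) and 0.02 (adjusted p = 0.91), and with library size alone Ikbkb passed the test at -0.32 and Chuk had the opposite sign, -0.1. Of 26 genes of the IKK complex and its upstream adaptors tested, 10 were lower and 3 were higher, beside 15.2% lower and 14.7% higher over all genes, and the median log2 fold change was -0.19. The largest decrease was that of Ikbke, an IKK-related kinase of antiviral signalling, with 278, 248 and 255 CPM in control and 59.4, 50.2 and 52.4 CPM in stimulated libraries (log2 fold change -2.27, SE 0.10, adjusted p = 2.0e-07, edgeR). Myd88, the adaptor of Toll-like and interleukin-1 receptors, fell by 0.89 and Bcl10, an adaptor of CARD proteins, by 0.54 on the log2 scale. The 3 higher genes, Traf6 (0.40), Irak2 (0.29) and Tab1 (0.31), lost their calls with library size alone and in all limma fits on FPKM. They also lost them when any control replicate was left out. Without the filter on low counts Irak2 and Tab1 lost their calls, and Tab1 did so with DESeq2.

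In the noncanonical arm, 4 of 8 tested genes were lower and 1 was higher, beside the same 15.2% and 14.7% over all genes. Birc3, which encodes cIAP2, a ubiquitin ligase that keeps NIK low and is itself an NF-κB target, had 66.4, 69.5 and 69.8 CPM in control and 29.03, 24.6 and 24.5 CPM in stimulated libraries (log2 fold change -1.40, SE 0.10, adjusted p = 3.6e-06, edgeR). The receptors Cd40 and Tnfrsf11a (RANK), which signal through NIK, fell by 1.37 and 0.70 on the log2 scale. Map3k14, the gene of NIK, was the higher one, with 30.6, 27.7 and 29.5 CPM in control and 36.0, 35.9 and 40.1 CPM in stimulated libraries (log2 fold change 0.35, SE 0.09, adjusted p = 0.016, edgeR). It had 0.22 and an adjusted p of 0.13 with library size alone (edgeR). The call of Map3k14 was also lost without control replicate 2 or 3 or stimulated replicate 3, and in all limma fits on FPKM.

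Of 17 negative regulators tested, 3 were lower, a share near the 15.2% over all genes, and 1 was higher, against 14.7%. The median log2 fold change was -0.11. Tnip3, an A20-binding protein, had 88.1, 90.7 and 92.9 CPM in control and 8.05, 8.17 and 7.45 CPM in stimulated libraries, and its log2 fold change of -3.52 (SE 0.09, adjusted p = 2.6e-08, edgeR) exceeded that of every one of the 10 NF-κB genes in size. Tnfaip3, which encodes the deubiquitinase A20, fell by 0.78 (adjusted p = 9.0e-05, edgeR) and Irak3, a kinase-dead inhibitor of Toll-like receptor signalling, by 0.44 on the log2 scale. Rnf11, a partner of A20, had a log2 fold change of 0.50 (adjusted p = 0.0017, edgeR). The other 13, among them Cyld and Tnip1, did not pass the test.

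The list of 27 NF-κB target genes had 25 tested, of which 18 were lower and 2 were higher (15.2% and 14.7% over all genes), and their median log2 fold change was -1.51 against 0.01 over all genes. Ccl5, Mmp9 and Il1b, which encode a chemokine, a matrix protease and interleukin-1β, had the largest decreases among those above 5 CPM, at -4.81, -4.60 and -3.33. Mmp9, with 14, 10 and 54 counts in stimulated libraries, was at -5.75 without stimulated replicate 3, and limma on log2(FPKM + 1) gave -2.76 for Mmp9 and -2.65 for Il1b. Il1b had 20.1, 24.8 and 23.2 CPM in control and 2.46, 2.00 and 2.32 CPM in stimulated libraries. Csf1, the gene of M-CSF, went the other way with 42.1, 36.5 and 39.4 CPM in control and 183, 178 and 186 CPM in stimulated libraries (log2 fold change 2.21, SE 0.09, adjusted p = 1.3e-07, edgeR). The other higher gene was Il6, with 6, 7 and 9 counts in control and 30, 29 and 32 counts in stimulated libraries and a log2 fold change of 2.23.

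Of 6 genes known to need IκBζ, 3 had enough counts. Ebi3, a subunit of interleukin-27, fell by 1.0 on the log2 scale (SE 0.15, adjusted p = 0.00070, edgeR). Lcn2, the gene of lipocalin-2, had 29, 17 and 28 counts in control and 860, 35 and 19 counts in stimulated libraries. Its groups overlapped, and its fitted log2 fold change of 3.85 (SE 1.27, adjusted p = 0.046, edgeR) was 0.29 with an adjusted p of 0.62 without stimulated replicate 1. The third gene was Il6, which had the few counts given above.

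**Figure D4:**
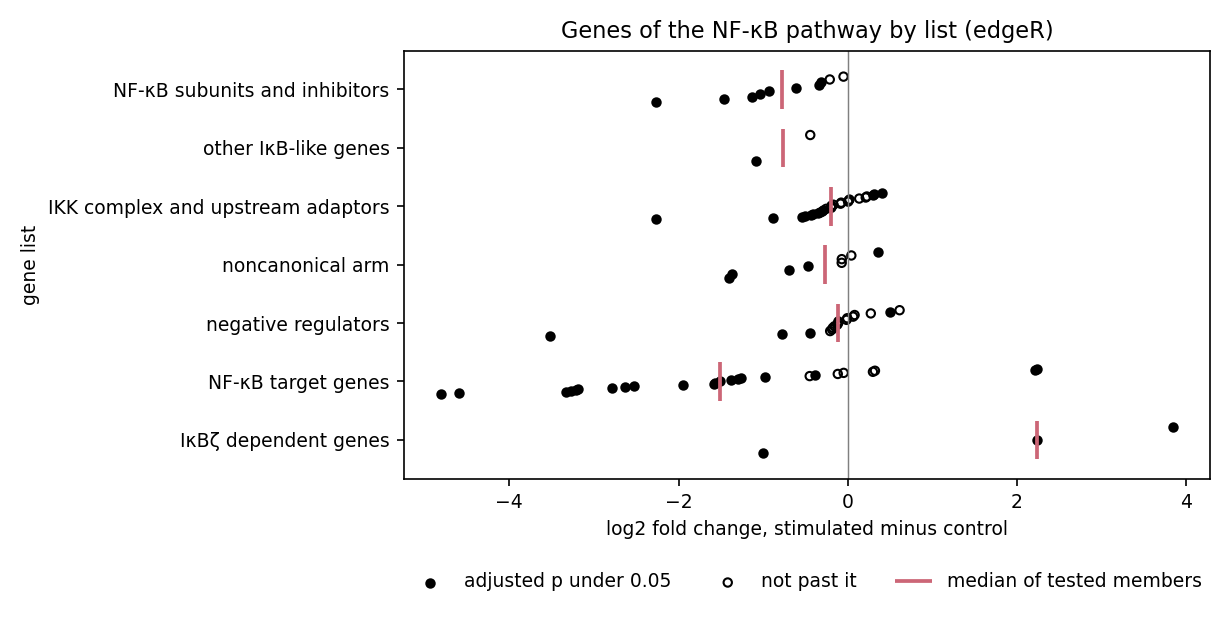
Log2 fold change, stimulated minus control, of every tested gene in each list (edgeR). Filled points have an adjusted p under 0.05, open points do not, and the red line is the median of the list's tested genes. The 10 NF-κB genes (median -0.77) and the target genes (median -1.51) lie mostly left of 0, while most of the negative regulators lie close to 0 (median -0.11).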

How the data were processed

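Paired-end reads were mapped by the authors to mm39 (GRCm39) with HISAT2 and counted per gene with featureCounts. The authors deposited raw counts without normalization and FPKM values for the same 41079 genes. Versions, annotation, strand setting and the origin of the FPKM gene lengths are not given in the sources used here. Samples and columns were assigned from the labels, and p-values measure the spread between these libraries.

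Tests on the counts used edgeR 4.0.16 under R 4.3.3 (filterByExpr, TMM, glmQLFit and glmQLFTest, Benjamini-Hochberg over 14618 genes, threshold 0.05). The standard error is the size of the log2 fold change divided by the square root of F. CPM are TMM-scaled. Depth was between 20628148 and 27261839 counts, and the smallest count of the 10 genes in a library was 203. The coefficient of variation between replicates was 0.128. FPKM were used for levels between genes. Positions and promoters (250 bases upstream of the canonical start) come from GENCODE M39 (GRCm39).

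The genes and lists were chosen with earlier results of these data known. The text names all 10 genes, Chuk, Ikbkb, Ikbkg, Map3k14, Tnfaip3 and Nfkbid, from each list up to 3 called genes per direction with the largest change and a mean of at least 5 CPM, and the 3 genes nearest to the one with the largest change. Il6, Cyld, Tnip1 and the markers Aldh1l1, Gja1, Mbp and Nefl fall outside this rule and were named after their values were seen. Psd, 4833438C02Rik and Sirt2 were named for their exon overlap. Alternatives were DESeq2 1.42.0, scaling by relative log expression or by library size alone, dropping the filter or asking for 10 counts per library, a block for the replicate number, leaving out 1 library at a time, limma 3.58.1 on log2(FPKM + 1) or log2(FPKM + 0.1), the former also with a minimum mean FPKM of 1, and union exon lengths. The pseudocount shrinks the fold changes that limma gives for low genes. The edgeR test was checked on simulated counts with the same dispersion for every gene and no deviating library. It recovered 87.8% of 2-fold and 99.0% of 4-fold changes, and 2.13% of its calls were false. How it behaves with a library that differs as stimulated library 1 does was not tested.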

Additional observations from a re-analysis of the deposited data

How the results depend on the processing

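The count of NF-κB genes called lower was 8 with DESeq2, relative log expression scaling, library size alone, both filters, the replicate block and all 3 limma fits, and between 6 and 9 with 1 library left out. The 6 were found without control replicate 1 or stimulated replicate 3, through Nfkb1 and Rela, and the 9 without stimulated replicate 1, through Nfkbiz. The count of higher genes was 0 under all of these. The count of all genes called lower was less steady. Of 14618 genes it was 2218 with TMM, 3168 with library size alone, and 3267 and 3262 with limma on log2(FPKM + 1) and log2(FPKM + 0.1). With a mean FPKM of at least 1 it was 2962 of 11572 genes. With 1 library left out it lay between 1646 (without control replicate 2) and 2643 (without stimulated replicate 1). For Rel, the log2 fold change turned to 0.029, 0.080 and 0.013 without control replicate 2, stimulated replicate 2 and stimulated replicate 3, within a range from -0.27 to 0.08 over the 6 libraries left out. Chuk turned to -0.101 (library size alone), -0.0013 (no filter), -0.11 and -0.12 (limma on log2(FPKM + 1), with and without the limit on mean FPKM, and on log2(FPKM + 0.1)) and -0.087 (without stimulated replicate 1). With 1 library left out, Chuk ranged from -0.087 to 0.092. Library size alone moved the median log2 fold change of all genes by -0.13, and 32.3% of calls were then higher, against 49.1% with TMM. With limma on log2(FPKM + 1) it was 31.1%, with log2(FPKM + 0.1) 31.3%, and with a mean FPKM of at least 1, which called 1176 genes higher against 2142, 28.4%.

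In the lists, IκB-like genes called lower were 2 instead of 1 with library size alone, no filter, the block and the 3 limma fits. IKK and adaptor genes called higher were 0 with library size alone and the 3 limma fits, and 1 with no filter, instead of 3. In the noncanonical arm the higher genes were 0 with library size alone and the 3 limma fits, instead of 1. With limma and a mean FPKM of at least 1, negative regulators called lower were 5 instead of 3. Target genes called higher were 1 instead of 2 with that fit and with at least 10 counts in every library. IκBζ-dependent genes called higher were 1 instead of 2 with library size alone, DESeq2, at least 10 counts and limma on log2(FPKM + 1) and log2(FPKM + 0.1), and 0 with a mean FPKM of at least 1. Il6 did not enter the fit with at least 10 counts in every library, as it had 6, 7 and 9 counts in control. It did not enter the fit with a mean FPKM of at least 1 either. Its means were 0.26 FPKM in control and 1.14 FPKM in stimulated libraries, and that limit was set on the mean of all 6 libraries. The cause of the other changes was not tested.

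With 1 library left out, the counts ranged from 1 to 2 for IκB-like genes (lower), from 0 to 3 for IKK and adaptor genes (higher), from 5 to 13 for IKK and adaptor genes (lower), from 0 to 1 for the noncanonical arm (higher) and from 1 to 2 for IκBζ-dependent genes (higher). Each of these fits also had 1 library fewer, and the cause of the changes was not tested.

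With union exon lengths in place of FPKM, shares in control and stimulated libraries were 13.6% and 17.1% for Nfkb1, 24.1% and 13.6% for Nfkb2, 40.03% and 49.4% for Rela, and 17.3% and 12.3% for Relb. The ratios were 1.77 and 0.796 (Nfkb2 to Nfkb1), 0.432 and 0.249 (Relb to Rela), 1.58 and 1.05 (Nfkbia to Rela) and 0.226 and 0.0896 (Nfkbie to Nfkbia). Lengths alone differ here, and every change kept its direction.

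Same-numbered libraries did not deviate together in all pairs, with correlations of 0.273, -0.0123 and 0.185 for numbers 1 to 3, and not every library correlated best with its own number. The replicate block gave 2401 higher and 2523 lower genes overall and changed no call among the 10 genes. Counts of 203 or more per library did not limit the 10 genes, whereas Lcn2 and Il6 had few counts in most libraries.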
